A study of Homo sapiens with 12 samples.

Results

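Receptor tyrosine kinases, the cell surface receptors that put phosphate on tyrosines when they bind their ligands, were measured as RNA by RNA-seq in 12 libraries of TC71, an established human Ewing sarcoma cell line. The genes were chosen by name from a list of 57 receptor tyrosine kinases, and a row was taken when its Ensembl identifier carried one of these names. Of the 57 genes, 46 were among the 21569 genes of the deposited table, and 11 (EGFR, KDR, FGFR2, NTRK2, NTRK3, MUSK, TIE1, TEK, EPHA6, EPHA8 and EPHB6) were not analysed here. The libraries form 4 groups of 3. They are TC71 cells labelled as an ID2 rescue of knockout clone 2, as ID2 knockout clone 2, as ID2 knockout clone 1, and as wild-type. ID2 belongs to the helix-loop-helix family but cannot bind DNA itself, and by pairing with E proteins it holds them off their sites. All were cultured in DMEM and fetal bovine serum. Each knockout is 1 clone, the rescue line carries the knockout of clone 2, and the labels give neither the edit nor what the rescue line was made to express. An effect of the ID2 edit therefore cannot be told apart from other differences between single clones. The question the groups address is which genes depend on ID2 in these cells.

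Many receptor tyrosine kinases belong to families named after their ligands. Most pair up when a growth factor binds, phosphorylate each other, and recruit adaptor proteins that start the RAS-MAP kinase, PI3 kinase and phospholipase C pathways, while phosphatases, ubiquitin ligases and feedback inhibitors switch them off. Some, such as PTK7, RYK and the ROR receptors, have little or no kinase activity and take part in Wnt signalling. Ewing sarcoma is a tumour of bone and soft tissue driven by a fusion of EWSR1 with an ETS factor, and the insulin-like growth factor receptor IGF1R has long been studied in it as a drug target.

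Values are CPM, the counts scaled by TMM to a common library size, and means carry the SD over n = 3 libraries. Library totals ran from 19420408 to 29748084 counts. A gene was called when its edgeR quasi-likelihood test gave a Benjamini-Hochberg adjusted p under 0.05 over all 17084 genes tested, and log2 fold changes carry the SE of that fit. ID2 itself had 42.0, 41.6 and 40.9 CPM in the rescue-labelled libraries, 47.8, 50.8 and 54.1 CPM in clone 2, 17.9, 17.4 and 18.9 CPM in clone 1 and 77.6, 78.6 and 77.4 CPM in wild-type. It was lower in both clones than in wild-type (log2 fold change -2.11 ± 0.051 for clone 1 and -0.62 ± 0.044 for clone 2). The libraries labelled rescue had less counted ID2 RNA than clone 2 too (-0.29 ± 0.047, edgeR adjusted p = 3.52e-06). The labels do not say whether reads of a rescue construct would be counted for ID2. Whether ID2 was restored in these libraries is therefore not known from the counts, and they are called rescue-labelled throughout. An edited gene can still give RNA, and the ID2 counts do not measure the protein. Nothing in the labels says whether the 3 libraries of a group are separate cultures, and the p-values then reflect only the spread among them, which may be technical. Of the 46 genes, 43 passed the filter on low counts and were tested. EPHA10 (1 to 5 counts per library), MST1R (2 to 9) and FLT1 (0 to 5) were not. Among the 43, 12 had under 10 counts in every library of at least 1 group, so they passed through the groups where they were higher.

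The 9 Ewing sarcoma markers, CD99 and NKX2-2 among them, were read in every group, with summed levels of 3461 to 3515 CPM in the rescue-labelled libraries, 3797 to 3950 CPM in clone 2, 4102 to 4187 CPM in clone 1 and 3911 to 3953 CPM in wild-type. Markers of other cell types also moved between the groups. The 5 epithelial markers in the table of 9 on that list summed to 76.9 to 86.9 CPM in the rescue-labelled libraries, 153 to 191 CPM in clone 2, 884 to 951 CPM in clone 1 and 115 to 122 CPM in wild-type. The 7 fibroblast markers, of which PDGFRB is one, summed to 119 to 128 CPM in the rescue-labelled libraries, 207 to 224 CPM in clone 2, 625 to 656 CPM in clone 1 and 277.5 to 283 CPM in wild-type. The 3 blood markers in the table of 7 summed to 3.44 to 4.07 CPM in the rescue-labelled libraries, 3.69 to 5.24 CPM in clone 2, 17.6 to 19.3 CPM in clone 1 and 2.01 to 2.65 CPM in wild-type. Most of the sum in clone 1 was CORO1A, at 17.03 to 18.9 CPM, while PTPRC, the marker of all white blood cells, was at 0 to 0.153 CPM over the 12 libraries. The 4 endothelial markers in the table of 7 summed to 8.87 to 9.69 CPM in the rescue-labelled libraries, 9.41 to 10.5 CPM in clone 2, 12.1 to 13.3 CPM in clone 1 and 4.69 to 5.58 CPM in wild-type. In clone 1 most of this sum was EMCN, with a mean of 8.35 CPM against 0.835 CPM in wild-type. CLDN5 (5.39 CPM) and ESAM (3.66 CPM) were highest in clone 2 by group mean. ESAM was lower in clone 1 (1.89 CPM) than in wild-type (2.79 CPM). Sums for skeletal muscle and for melanocyte or Schwann cell markers were at most 6.59 CPM in each library, and each marker of these lists that was in the table had a read in every group. The part of these markers in the receptors' differences was not tested. All libraries are of the same cell line, and fewer cells with a marker's RNA cannot be told apart from less RNA per cell in bulk samples.

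The promoters of 6 receptors that moved in the same direction in each clone are shown first, since E proteins, the partners of ID2, bind the letters CANNTG, called the E-box. Each window runs from 250 bases before the gene's start to 50 bases after it, is from RefSeq (GRCh38.p14), and is written 5′ to 3′ on the gene's strand with every CANNTG in capitals. Among receptors that reached 1 CPM in a group, PDGFRA, EPHA5, FGFR4, ROR2 and RET were lower in each clone than in wild-type by at least 2-fold, and AATK had the largest fitted change of those that were higher by at least 2-fold in each. EPHB1 was also lower in each by at least 2-fold, at under 1 CPM in every group. The RefSeq start used for AATK lies inside the gene's longer span in the GENCODE annotation. The windows lie at chr4:54229043-54229342 (plus strand), chr4:65670440-65670739 (minus strand), chr5:177086665-177086964 (plus strand), chr9:91950179-91950478 (minus strand), chr10:43076819-43077118 (plus strand) and chr17:81131905-81132204 (minus strand), each named in the order of the lines.
PDGFRA: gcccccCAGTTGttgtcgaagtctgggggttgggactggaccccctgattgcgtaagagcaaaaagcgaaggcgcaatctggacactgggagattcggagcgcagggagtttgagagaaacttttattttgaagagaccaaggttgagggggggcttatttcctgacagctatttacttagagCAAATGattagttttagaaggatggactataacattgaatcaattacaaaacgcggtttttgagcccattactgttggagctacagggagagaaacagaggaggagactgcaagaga
EPHA5: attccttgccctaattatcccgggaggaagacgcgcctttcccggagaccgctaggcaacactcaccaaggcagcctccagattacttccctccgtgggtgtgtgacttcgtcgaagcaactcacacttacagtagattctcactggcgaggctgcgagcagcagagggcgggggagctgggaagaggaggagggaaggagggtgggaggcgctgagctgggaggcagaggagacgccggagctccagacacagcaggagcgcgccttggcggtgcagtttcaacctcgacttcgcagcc
FGFR4: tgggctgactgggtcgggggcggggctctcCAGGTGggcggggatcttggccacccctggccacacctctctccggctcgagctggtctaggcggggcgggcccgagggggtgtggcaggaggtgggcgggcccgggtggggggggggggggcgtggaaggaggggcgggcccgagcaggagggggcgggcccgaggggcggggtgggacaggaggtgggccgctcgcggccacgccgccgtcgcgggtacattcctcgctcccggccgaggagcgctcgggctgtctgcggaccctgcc
ROR2: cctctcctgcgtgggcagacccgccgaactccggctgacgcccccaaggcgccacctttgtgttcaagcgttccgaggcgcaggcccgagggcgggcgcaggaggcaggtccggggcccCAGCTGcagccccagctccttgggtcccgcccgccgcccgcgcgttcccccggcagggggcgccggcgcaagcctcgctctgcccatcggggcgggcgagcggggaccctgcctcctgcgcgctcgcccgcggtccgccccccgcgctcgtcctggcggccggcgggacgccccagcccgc
RET: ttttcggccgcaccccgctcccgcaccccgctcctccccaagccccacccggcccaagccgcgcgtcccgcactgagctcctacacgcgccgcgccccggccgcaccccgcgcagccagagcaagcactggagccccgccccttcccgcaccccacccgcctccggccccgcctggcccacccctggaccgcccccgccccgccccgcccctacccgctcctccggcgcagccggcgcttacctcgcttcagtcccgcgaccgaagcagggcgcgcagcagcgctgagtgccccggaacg
AATK: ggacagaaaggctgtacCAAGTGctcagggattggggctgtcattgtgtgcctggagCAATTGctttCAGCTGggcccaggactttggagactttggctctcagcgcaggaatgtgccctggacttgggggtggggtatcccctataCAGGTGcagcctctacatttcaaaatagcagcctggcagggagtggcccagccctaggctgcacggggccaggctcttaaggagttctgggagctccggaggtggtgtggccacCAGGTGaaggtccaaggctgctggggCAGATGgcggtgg
The PDGFRA window held 2 E-boxes, FGFR4 and ROR2 held 1 each, EPHA5 and RET held 0, and AATK held 6. Of the other receptors higher in each clone by at least 2-fold, ERBB4 held 0, EPHA1 1, LMTK3 2 and CSF1R 4. INSRR, also higher in each, had no window, and EPHB1, lower in each, held 0. CANNTG is its own reverse complement, so both strands are covered by 1 search. Of the 40 receptors with a window in the table, 25 (62.5%) held at least 1 E-box, against 68.9% of all 27305 windows of this length. The Ewing fusion protein binds repeats of the letters GGAA. A tandem of 2 units, the length searched for here, was found on either strand in 0 of the 40 windows and in 3.58% of all windows. A match describes letters and is not a binding site, and no match says only that the letters are not in this window.

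Levels of different receptors were compared per kb of exon. In wild-type EPHB4, a receptor for ephrin-B2, was highest at 14.98 CPM per kb, followed by PDGFRB, a receptor for platelet-derived growth factor (13.5), PTK7 (11.3), the ephrin receptor EPHA3 (10.2), the collagen receptor DDR2 (9.48), IGF1R (9.12), the fibroblast growth factor receptor FGFR1 (8.87), EPHB3 (8.30), RYK (7.09) and the stem cell factor receptor KIT (6.59). EPHB4 and PTK7 were among the 3 highest in all 4 groups. PDGFRB had rank 17 of the 43 in the rescue-labelled libraries and rank 1 in clone 1 by level per kb. Its level was 3.46 CPM per kb in the rescue-labelled libraries, 9.29 in clone 2 (rank 4), 22.4 in clone 1 and 13.5 in wild-type (rank 2). DDR2 ranked 13 in the rescue-labelled libraries, 13 in clone 2, 15 in clone 1 and 5 in wild-type. EPHA2 ranked 10, 2, 12 and 11 in the same order of groups. The 46 genes summed to 1006 ± 18.99 CPM in the rescue-labelled libraries, 1117 ± 9.90 CPM in clone 2, 1437 ± 5.56 CPM in clone 1 and 1289 ± 25.0 CPM in wild-type (SD, n = 3 each).

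**Figure D1:**
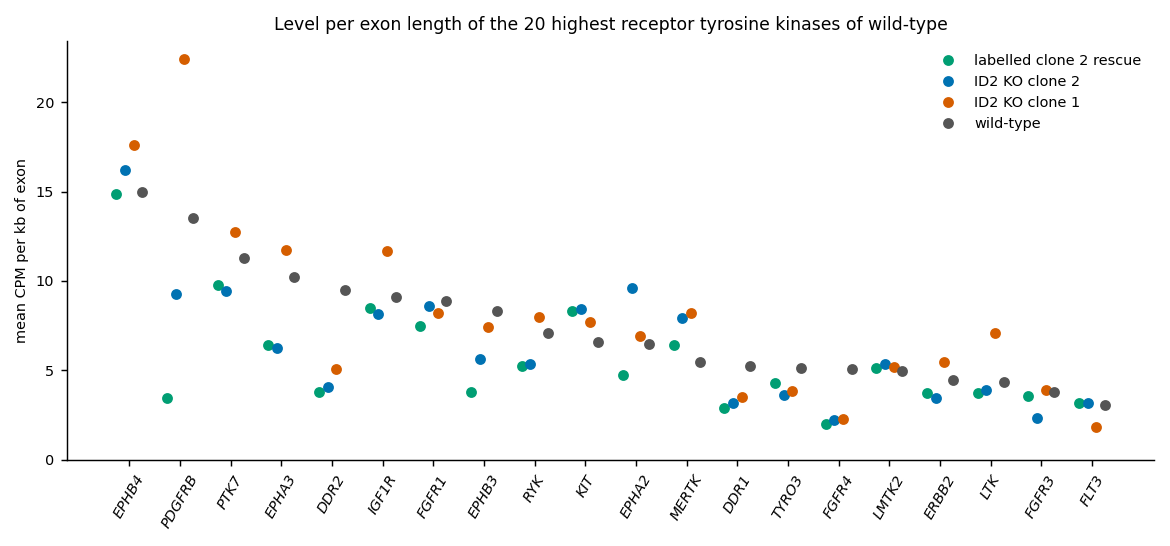
Mean CPM per kb of exon of the 20 receptor tyrosine kinases that were highest in wild-type, with 1 point for each group mean of 3 libraries. PDGFRB lies at 3.46 CPM per kb in the rescue-labelled libraries and 22.4 in clone 1, while EPHB4 stays between 14.9 and 17.6.

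In clone 1, RNA for AXL, AATK, CSF1R, EPHA1, ERBB4, MET and INSR was higher than in wild-type by at least 2-fold, and RNA for RET, ROR2, PDGFRA, EPHA5, FLT4 and FGFR4 was lower. Of the 43 receptors, 23 were called higher and 14 lower, beside 30.8% and 30.7% of all genes tested, and 37 (86.0%) were called in either direction, against 61.5% of all genes. At a change of at least 2-fold, 9 were higher (20.9%) and 7 lower (16.3%), against 9.61% and 4.06% of all genes. Of the higher ones, INSRR, EPHA1, AATK, AXL and LMTK3 passed the filter through groups where they were higher. The same holds for EPHB1, PDGFRA, EPHA5, ROR2 and RET of the lower ones. The median log2 fold change of the 43 was 0.22, and 0.01 over all genes. Their median size, without sign, was 0.73, and 0.29 over all genes. The 6 that were not called were EPHA2, EPHB2, FGFR3, ROS1, LMTK2 and ERBB3.

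In clone 2, AATK, CSF1R, EPHA1 and ERBB4 were higher than in wild-type by at least 2-fold, and PDGFRA, EPHA5, RET, ROR2, FGFR4 and DDR2 were lower. Of the 43 receptors, 16 were called higher and 19 lower, beside 31.5% and 30.6% of all genes tested, and 35 (81.4%) were called in either direction, against 62.1% of all genes. At a change of at least 2-fold, 6 were higher (13.95%) and 7 lower (16.3%), against 10.4% and 2.87%. Of the higher ones, INSRR, EPHA1, AATK and LMTK3 passed the filter through groups where they were higher. The same holds for EPHB1, PDGFRA, EPHA5, ROR2 and RET of the lower ones. The median log2 fold change of the 43 was -0.10, and 0.01 over all genes, and their median size was 0.54, and 0.31 over all genes. The comparisons of both clones share the same 3 wild-type libraries. The 8 that were not called were EPHB2, EPHA7, ROS1, FGFR1, STYK1, FLT3, LTK and AXL.

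**Figure D2:**
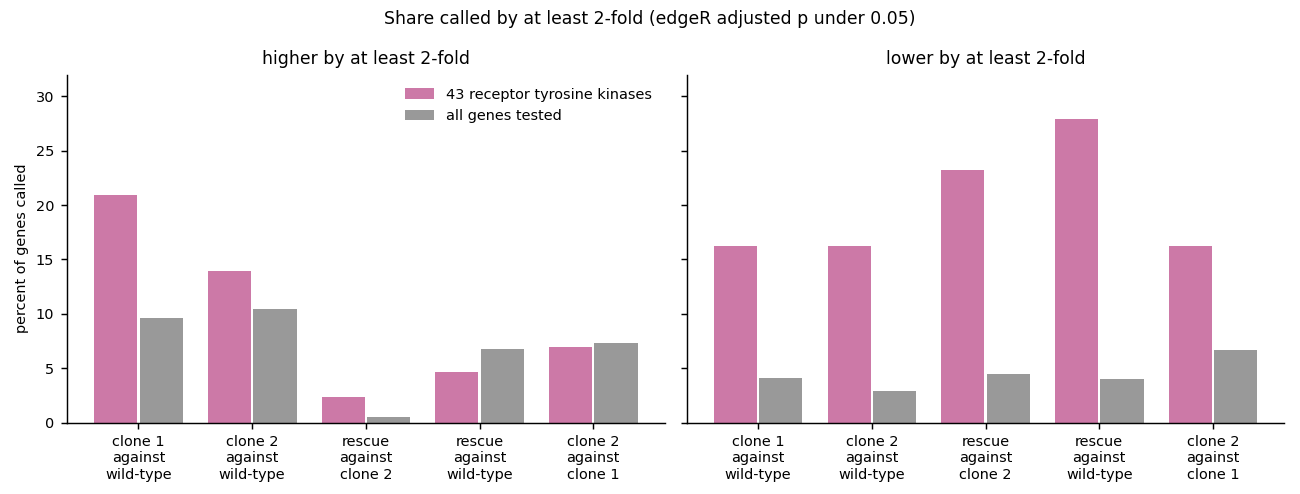
Percent of the 43 tested receptor tyrosine kinases and of all 17084 genes tested that were called higher (left) or lower (right) by at least 2-fold in each of the 5 comparisons. The receptors' share of lower calls was 16.3% to 27.9%, and that of all genes 2.87% to 6.64%. In each comparison, calls come in part from the 12 receptors that passed the filter through groups where they were higher. The part of this filter in the shares was not tested.

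**Figure D3:**
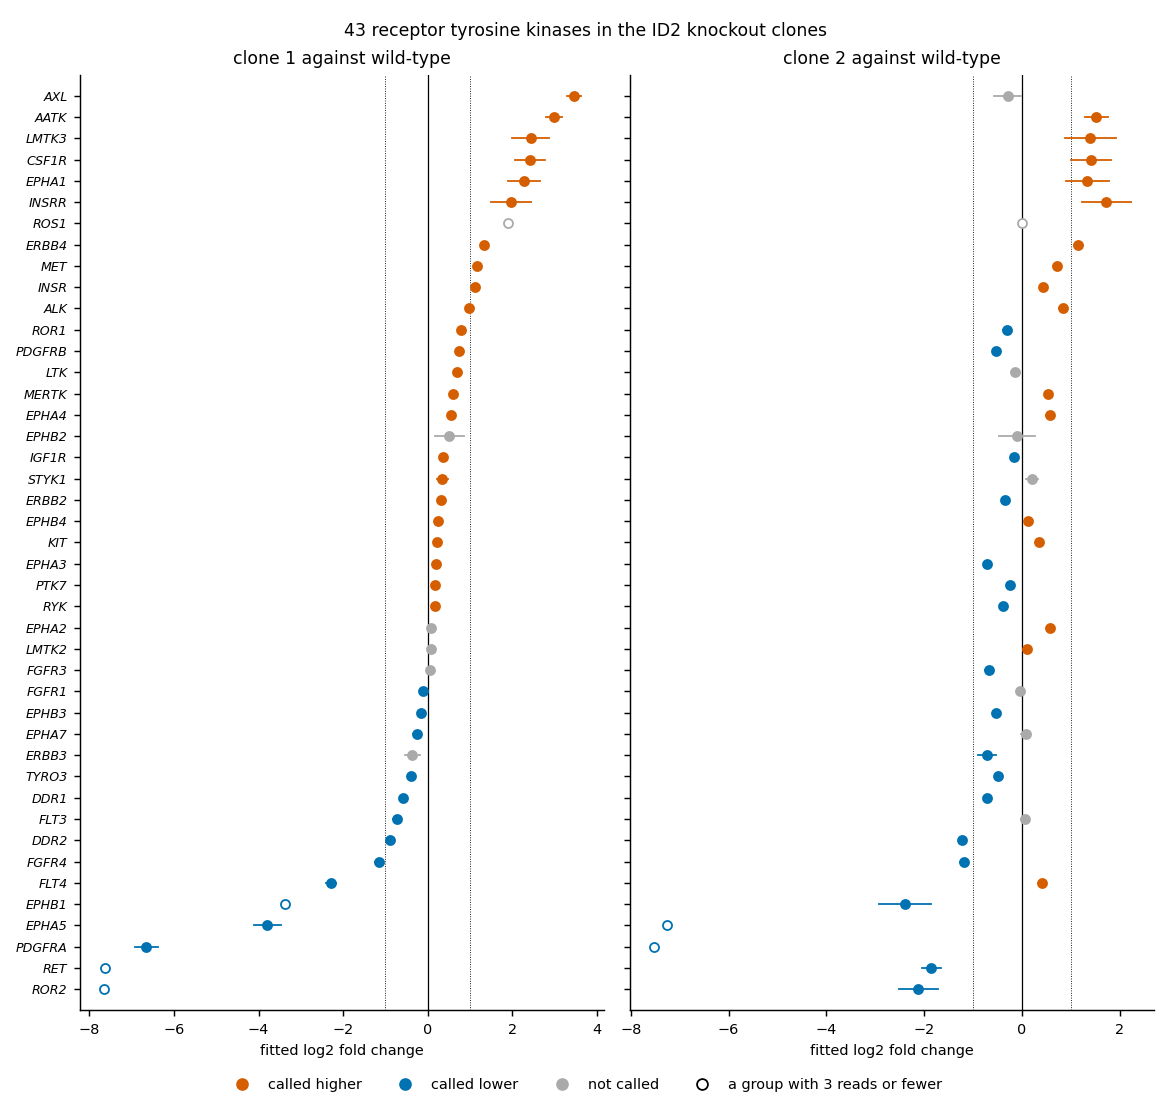
Fitted log2 fold change with its SE for the 43 tested receptor tyrosine kinases in clone 1 (left) and clone 2 (right) against wild-type, ordered by clone 1. Open points have 3 reads or fewer in a group, so their place depends on the fit and is no measured fold. PDGFRB and ROR1 lie above 0 in clone 1 and below it in clone 2, and FLT4 the other way round.

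The platelet-derived growth factor and colony-stimulating factor receptors differed widely between groups. PDGFRA binds platelet-derived growth factors in mesenchymal cells. PDGFRA had 0, 0 and 0.0765 CPM in the rescue-labelled libraries, 0, 0.101 and 0.0463 CPM in clone 2, 0.150, 0.0711 and 0.0412 CPM in clone 1, and 8.599, 9.05 and 8.86 CPM in wild-type. Its RNA was close to absent outside wild-type, with 2 reads over the 3 rescue-labelled libraries, 3 in clone 2, 6 in clone 1 and 653 in wild-type. The log2 fold change was -6.65 ± 0.28 in clone 1. The ratio to wild-type was 0.00485 in clone 2 (exact 95% counting interval 0.000998 to 0.0142) and 0.00286 in the rescue-labelled libraries (0.000346 to 0.0104), and these intervals cover counting error only. KIT, the next gene on the chromosome at a distance of 359.671 kb, was not lower. KIT averaged 46.2 ± 0.581 CPM in the rescue-labelled libraries, 46.9 ± 1.18 CPM in clone 2, 42.8 ± 1.07 CPM in clone 1 and 36.7 ± 1.52 CPM in wild-type. It was called higher in clone 1 (log2 fold change 0.22 ± 0.047) and in clone 2 (0.35 ± 0.047). On the other side of PDGFRA, CHIC2 had log2 fold changes of -0.15 in clone 1 and 0.15 in clone 2 and was not called in either.

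PDGFRB had 23.6, 23.2 and 27.3 CPM in the rescue-labelled libraries, 66.8, 66.6 and 65.4 CPM in clone 2, 162, 152 and 165 CPM in clone 1, and 96.0, 94.4 and 98.6 CPM in wild-type. The 4 groups did not overlap, with clone 1 above wild-type and clone 2 and the rescue-labelled libraries below it. The log2 fold change against wild-type was 0.73 ± 0.040 in clone 1, -0.54 ± 0.043 in clone 2, with -1.97 ± 0.049 in the rescue-labelled libraries, and the edgeR adjusted p was at most 4.13e-14 in the 3 comparisons. PDGFRB is 1 of the 7 fibroblast markers, whose summed level, PDGFRB included, had the same order of groups. Of the other markers, THY1 and DCN had this order by group mean, and COL1A1, COL1A2, COL3A1 and LUM did not. COL1A1 was higher in clone 2 (65.1 CPM) than in wild-type (27.4 CPM), and LUM was highest in wild-type (3.77 CPM). The part of these markers in the PDGFRB values was not tested. CSF1R, the receptor for CSF1 and IL34 on macrophages, lies 0.465 kb from PDGFRB on the same strand, and was at low levels. CSF1R had 0.477, 0.155 and 0.229 CPM in the rescue-labelled libraries, 0.768, 0.708 and 0.694 CPM in clone 2, 1.20, 1.42 and 1.73 CPM in clone 1, and 0.0839, 0.379 and 0.345 CPM in wild-type. It was higher in clone 1 (2.41 ± 0.35) and clone 2 (1.41 ± 0.40) than in wild-type, and the rescue-labelled libraries overlapped wild-type. The summed blood markers given above were likewise highest in clone 1, where most of the sum was CORO1A. CD14, another of them, was highest in clone 2. It averaged 0.604 CPM in the rescue-labelled libraries, 0.711 in clone 2, 0.405 in clone 1 and 0.160 in wild-type. The part of these markers in the CSF1R values was not tested. The fall of CSF1R in the rescue-labelled libraries against clone 2 (-1.31 ± 0.39) lost its call without rescue-labelled library 2 (edgeR adjusted p = 0.0542). Over these neighbours, PDGFRB was lower in clone 2 than in wild-type while CSF1R was higher. FLT3, the receptor for FLT3LG, averaged 13.2 ± 0.580 CPM in the rescue-labelled libraries, 13.3 ± 1.35 CPM in clone 2, 7.72 ± 0.530 CPM in clone 1 and 12.8 ± 0.378 CPM in wild-type, and only clone 1 was called (-0.73 ± 0.087). The tested genes within 5 Mb of FLT3 had a median log2 fold change of -0.32 in clone 1, and their part in its value was not tested.

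RET signals for ligands of the GDNF family together with GFRA co-receptors. RET had 0.404, 0.232 and 0.497 CPM in the rescue-labelled libraries, 1.08, 1.21 and 0.787 CPM in clone 2, 0, 0.0356 and 0 CPM in clone 1, and 3.77, 3.74 and 3.69 CPM in wild-type. Each group stood apart, with clone 1 near 0, the rescue-labelled libraries next, then clone 2, and wild-type highest. Clone 1 held 1 read, a ratio to wild-type of 0.00370 (exact 95% counting interval 9.33e-05 to 0.0208). RET changed by -1.86 ± 0.20 on the log2 scale in clone 2, -3.28 ± 0.24 in the rescue-labelled libraries against wild-type, and -1.43 ± 0.31 against clone 2. Of the neighbours, CSGALNACT2, 8.135 kb away, had log2 fold changes of 0.01 in clone 1 and 0.16 in clone 2. ROS1, a receptor kinase best known for its fusions in lung cancer, was read almost only in 1 group. ROS1 had 1.58, 1.55 and 2.29 CPM in the rescue-labelled libraries, 0, 0 and 0 CPM in clone 2, 0, 0.0356 and 0 CPM in clone 1, and 0, 0 and 0 CPM in wild-type. The rescue-labelled libraries held 143 reads, at least 42.1-fold above clone 2 and at least 44.5-fold above wild-type, each of which held 0 reads and was set at a floor of 3 counts over the group. Its flanking genes KPNA5 and DCBLD1 had log2 fold changes of -0.33 and 0.11 against clone 2. ALK and LTK, receptors for ALKAL1 and ALKAL2, were higher in clone 1 than in wild-type. ALK averaged 11.6 ± 1.06 CPM in the rescue-labelled libraries, 19.1 ± 1.39 CPM in clone 2, 21.2 ± 0.595 CPM in clone 1 and 10.6 ± 1.16 CPM in wild-type. LTK averaged 13.0 ± 1.03 CPM in the rescue-labelled libraries, 13.7 ± 0.639 CPM in clone 2, 24.7 ± 1.38 CPM in clone 1 and 15.2 ± 0.863 CPM in wild-type. ALK was also called higher in clone 2 (0.84 ± 0.079) and LTK was not (-0.15 ± 0.075, edgeR adjusted p = 0.0744). The genes within 5 Mb of ALK had a median log2 fold change of 0.37 in clone 2, and their part in its value was not tested.

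Among the fibroblast growth factor receptors, FGFR4 was lower in every other group than in wild-type. FGFR4 had 9.84, 8.99 and 10.6 CPM in the rescue-labelled libraries, 11.7, 9.61 and 10.9 CPM in clone 2, 12.6, 10.6 and 10.1 CPM in clone 1, and 23.9, 25.7 and 24.3 CPM in wild-type. The wild-type libraries lay above all others and the other 3 groups overlapped each other. Log2 fold changes were -1.16 ± 0.077 in clone 1, -1.18 ± 0.078 in clone 2, with -1.33 ± 0.077 in the rescue-labelled libraries. In clone 1 the genes within 5 Mb of FGFR4 had a median of -0.47 and its neighbours ZNF346 and NSD1 were at -0.67 and -0.38, against -0.13 and -0.08 in clone 2, and their part in its value was not tested. FGFR3, known from skeletal growth, was lower in clone 2 alone of the 3 groups set against wild-type. FGFR3 averaged 17.2 ± 1.30 CPM in the rescue-labelled libraries, 11.3 ± 0.756 CPM in clone 2, 18.97 ± 0.242 CPM in clone 1 and 18.4 ± 2.24 CPM in wild-type. Its log2 fold change was -0.68 ± 0.081 in clone 2 against wild-type and 0.60 ± 0.081 in the rescue-labelled libraries against clone 2. FGFR1 averaged 103 ± 1.41 CPM in the rescue-labelled libraries, 119 ± 2.31 CPM in clone 2, 114 ± 0.864 CPM in clone 1 and 123 ± 4.33 CPM in wild-type, and its call in clone 1 (-0.11 ± 0.035) was lost without wild-type library 2 (edgeR adjusted p = 0.0585). The median over all genes of chromosome 8, which holds FGFR1, was -0.21 in clone 1 and -0.22 in clone 2. FLT4, the VEGFC and VEGFD receptor of lymphatic vessels, went opposite ways in the clones. FLT4 had 13.4, 11.8 and 11.7 CPM in the rescue-labelled libraries, 16.7, 13.8 and 14.8 CPM in clone 2, 1.95, 2.42 and 2.59 CPM in clone 1, and 11.5, 11.7 and 11.4 CPM in wild-type. Clone 1 lay below all other libraries and clone 2 above wild-type, with log2 fold changes of -2.30 ± 0.12 and 0.40 ± 0.081. The genes within 5 Mb of FLT4 had a median of -0.48 in clone 1, and their part in its value was not tested. Its fall in the rescue-labelled libraries against clone 2 (-0.30 ± 0.079) lost its call without clone 2 library 1 (edgeR adjusted p = 0.0783).

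ERBB4, a receptor for neuregulins, was higher in all 3 other groups than in wild-type. ERBB4 had 18.7, 15.4 and 15.8 CPM in the rescue-labelled libraries, 14.7, 16.4 and 15.6 CPM in clone 2, 16.4, 18.8 and 17.5 CPM in clone 1, and 6.84, 6.97 and 7.10 CPM in wild-type. No library of these groups overlapped wild-type, and the rescue-labelled libraries overlapped both clones. On the log2 scale the change was 1.34 ± 0.086 in clone 1, 1.15 ± 0.089 in clone 2, with 1.254 ± 0.086 in the rescue-labelled libraries. ERBB2, the partner of the other ERBB receptors, moved less and in different directions, with 38.5 ± 1.01 CPM in the rescue-labelled libraries, 35.8 ± 1.68 CPM in clone 2, 56.5 ± 3.10 CPM in clone 1 and 45.9 ± 2.86 CPM in wild-type. ERBB3, which has a weak kinase and signals through its partners, averaged 1.55 to 2.52 CPM over the groups and was called lower in clone 2 (-0.71 ± 0.18). MET, the hepatocyte growth factor receptor, followed ERBB4 in direction. MET had 16.4, 15.4 and 16.3 CPM in the rescue-labelled libraries, 17.8, 17.5 and 18.1 CPM in clone 2, 23.9, 23.4 and 25.4 CPM in clone 1, and 11.5, 10.3 and 10.8 CPM in wild-type. Here the clones did not overlap, with log2 fold changes of 1.15 ± 0.067 in clone 1, 0.71 ± 0.071 in clone 2, with 0.56 ± 0.071 in the rescue-labelled libraries. The related receptor MST1R was not tested. The insulin receptor INSR was higher in both clones. INSR had 20.7, 20.3 and 20.2 CPM in the rescue-labelled libraries, 27.2, 28.9 and 27.9 CPM in clone 2, 45.8, 44.9 and 44.0 CPM in clone 1, and 20.6, 20.04 and 21.4 CPM in wild-type. Its log2 fold change was 1.11 ± 0.052 in clone 1 and 0.43 ± 0.056 in clone 2, and the rescue-labelled libraries overlapped wild-type (-0.02 ± 0.057, edgeR adjusted p = 0.751). IGF1R was higher in clone 1 (0.36 ± 0.038) and slightly lower in clone 2 (-0.16 ± 0.039). IGF1R averaged 119 ± 6.14 CPM in the rescue-labelled libraries, 114 ± 4.68 CPM in clone 2, 163 ± 3.51 CPM in clone 1 and 127 ± 4.25 CPM in wild-type. INSRR, a receptor that responds to alkaline pH, stayed under 1 CPM in every library and had called log2 fold changes of 1.96 ± 0.48 in clone 1 and 1.72 ± 0.50 in clone 2.

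**Figure D4:**
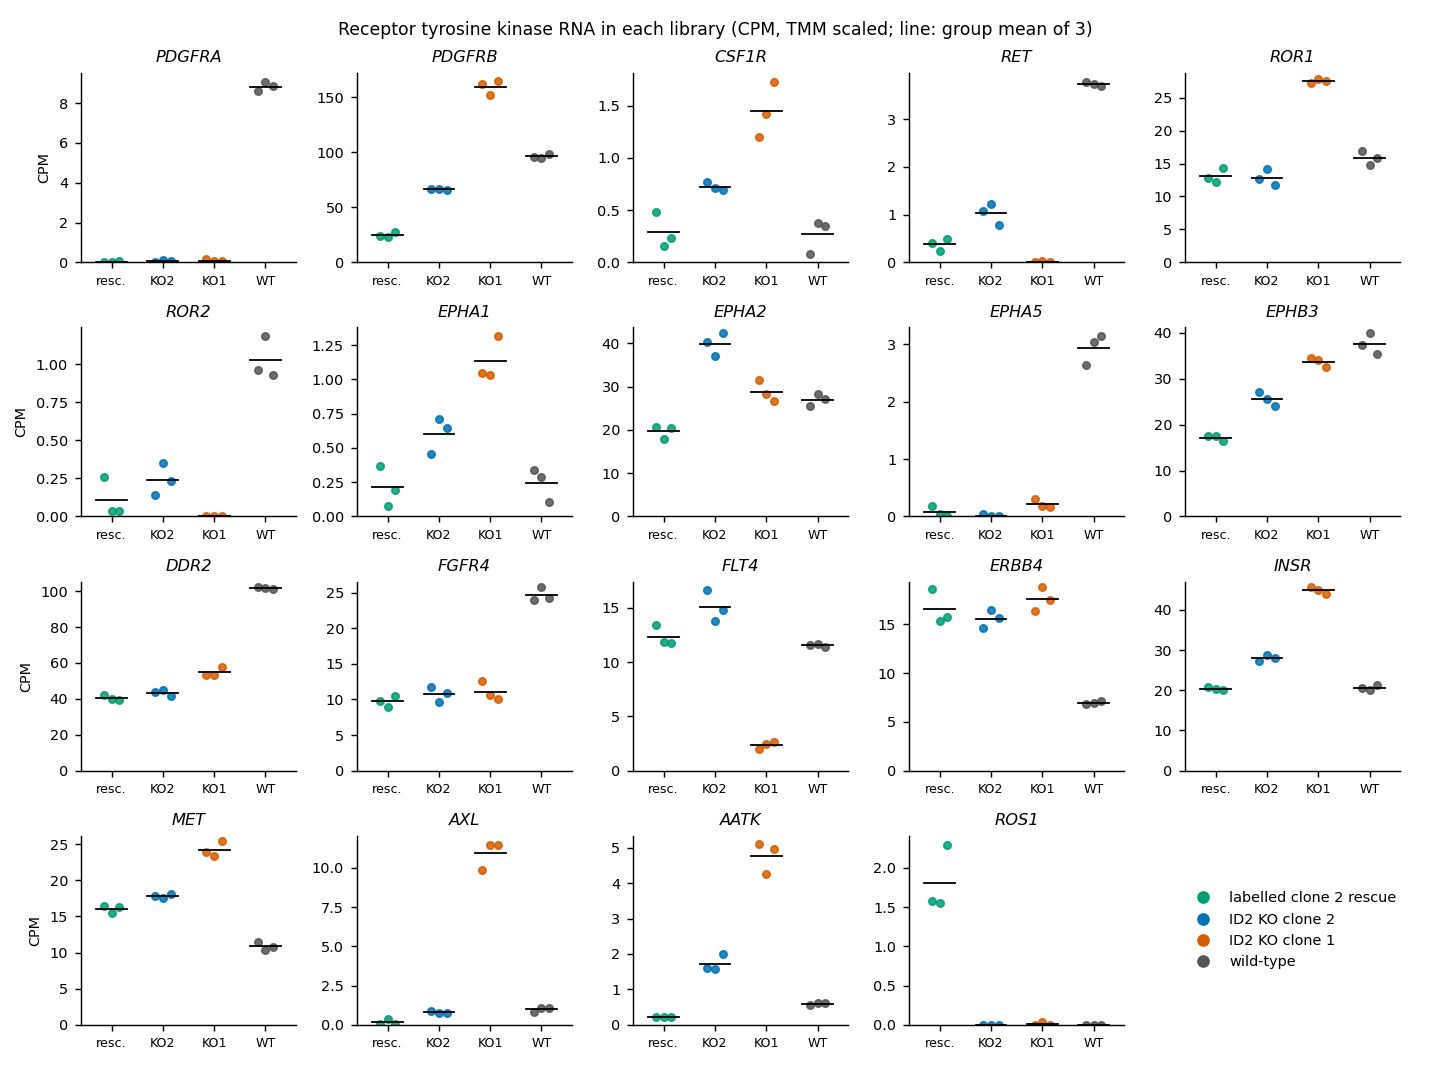
CPM in each of the 12 libraries for the 19 receptor tyrosine kinases that changed by at least 2-fold in at least 1 comparison and reached 1 CPM in a group, with a line at the mean of 3. PDGFRA, EPHA5, RET and ROR2 are lower in all 3 other groups than in wild-type, ROS1 reaches 1.55 to 2.29 CPM in the rescue-labelled libraries, and AXL stands at 9.85, 11.5 and 11.4 CPM in clone 1.

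AXL, MERTK and TYRO3 bind GAS6, and MERTK and TYRO3 also bind PROS1. AXL had 0.0734, 0.349 and 0.0765 CPM in the rescue-labelled libraries, 0.908, 0.759 and 0.741 CPM in clone 2, 9.85, 11.5 and 11.4 CPM in clone 1, and 0.839, 1.09 and 1.07 CPM in wild-type. Clone 1 lay above all other libraries, and the rescue-labelled libraries lay below the rest. The log2 fold change against wild-type was 3.45 ± 0.16 in clone 1, -0.30 ± 0.27 in clone 2 (not called, edgeR adjusted p = 0.354) and -2.57 ± 0.38 in the rescue-labelled libraries. Without rescue-labelled library 2, the value in the rescue-labelled libraries was -3.66 against wild-type and -3.34 against clone 2 in place of -2.27 ± 0.41. CYP2S1, 11.664 kb from AXL, had log2 fold changes of 2.62 in clone 1 and -0.32 in clone 2, and HNRNPUL1, 0.73 kb away on the other side, 0.01 and -0.18. MERTK was higher in both clones and TYRO3 lower. MERTK averaged 30.1 ± 0.962 CPM in the rescue-labelled libraries, 37.2 ± 1.22 CPM in clone 2, 38.6 ± 1.03 CPM in clone 1 and 25.7 ± 2.48 CPM in wild-type. TYRO3 averaged 46.9 ± 1.04 CPM in the rescue-labelled libraries, 39.9 ± 2.14 CPM in clone 2, 42.2 ± 1.30 CPM in clone 1 and 56.0 ± 3.53 CPM in wild-type. Their log2 fold changes were 0.59 ± 0.056 and -0.41 ± 0.049 in clone 1, and 0.53 ± 0.057 and -0.49 ± 0.049 in clone 2. The lemur tail kinases AATK, LMTK2 and LMTK3 are membrane-anchored kinases without a large extracellular part. AATK had 0.220, 0.232 and 0.229 CPM in the rescue-labelled libraries, 1.61, 1.57 and 1.99 CPM in clone 2, 5.10, 4.27 and 4.98 CPM in clone 1, and 0.545, 0.616 and 0.620 CPM in wild-type. AATK was highest in clone 1, then in clone 2, then in wild-type, with the rescue-labelled libraries below all others. Its log2 fold change was 2.99 ± 0.20 in clone 1, 1.52 ± 0.24 in clone 2, with -2.89 ± 0.29 in the rescue-labelled libraries against clone 2. CEP131, 23.516 kb from AATK, had log2 fold changes of 1.27 in clone 1 and 0.07 in clone 2. It was at -0.04 in the rescue-labelled libraries against clone 2. CHMP6, on the other side, was at -0.22, -0.51 and 0.33 in the same order. Their part in the AATK values was not tested. LMTK3 averaged 0.0879 ± 0.0426 CPM in the rescue-labelled libraries, 0.399 ± 0.192 CPM in clone 2, 0.804 ± 0.259 CPM in clone 1 and 0.149 ± 0.0567 CPM in wild-type. Its call in clone 2 (1.40 ± 0.52) was lost without wild-type library 1 (edgeR adjusted p = 0.0895), clone 2 library 1 (edgeR adjusted p = 0.0817) or clone 2 library 2 (edgeR adjusted p = 0.0947). LMTK2 averaged 45.5 to 49.1 CPM over the groups, and its call in clone 2 (0.11 ± 0.046) was lost without any 1 of wild-type libraries 1 and 3 and clone 2 libraries 1, 2 and 3 (edgeR adjusted p = 0.0746 to 0.241).

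The ephrin receptors, which bind ligands fixed to neighbouring cells, include EPHB4, the highest receptor of wild-type per kb, and others under 1 CPM. EPHA5, a receptor of neurons, was close to lost outside wild-type. EPHA5 had 0.184, 0.0387 and 0 CPM in the rescue-labelled libraries, 0.0349, 0 and 0 CPM in clone 2, 0.2999, 0.178 and 0.165 CPM in clone 1, and 2.64, 3.03 and 3.14 CPM in wild-type. The wild-type libraries lay above all others. EPHA5 had a log2 fold change of -3.79 ± 0.32 in clone 1, clone 2 held 1 read (ratio 0.00485, exact 95% counting interval 0.000122 to 0.0273), and the rescue-labelled libraries were at -5.19 ± 0.37, or -6.92 without library 1 of that group. EPHA1 was higher in both clones than in wild-type, at low levels. EPHA1 had 0.367, 0.0775 and 0.191 CPM in the rescue-labelled libraries, 0.454, 0.708 and 0.648 CPM in clone 2, 1.05, 1.03 and 1.32 CPM in clone 1, and 0.336, 0.284 and 0.103 CPM in wild-type. Its log2 fold change was 2.27 ± 0.38 in clone 1 and 1.33 ± 0.44 in clone 2, and the call in clone 2 was lost without wild-type library 3 (edgeR adjusted p = 0.101). FAM131B, 27.519 kb from EPHA1, had log2 fold changes of 0.76 in clone 1 and 0.76 in clone 2. TCAF1, on the other side, was at 0.01 and -0.05, and their part in the EPHA1 values was not tested. EPHA2 was higher in clone 2 than in wild-type (0.57 ± 0.061) and lower in the rescue-labelled libraries (-0.45 ± 0.066). EPHA2 had 20.7, 18.0 and 20.5 CPM in the rescue-labelled libraries, 40.3, 37.0 and 42.5 CPM in clone 2, 31.5, 28.2 and 26.6 CPM in clone 1, and 25.6, 28.3 and 27.1 CPM in wild-type. Clone 1 and wild-type overlapped. EPHB3 was lowest in the rescue-labelled libraries. EPHB3 had 17.5, 17.6 and 16.4 CPM in the rescue-labelled libraries, 27.2, 25.6 and 24.1 CPM in clone 2, 34.5, 34.1 and 32.7 CPM in clone 1, and 37.4, 40.0 and 35.4 CPM in wild-type. Its log2 fold change was -0.54 ± 0.056 in clone 2, with -1.13 ± 0.059 in the rescue-labelled libraries, and in clone 1 the call at -0.15 ± 0.054 was lost without wild-type library 2 (edgeR adjusted p = 0.112) or clone 1 library 3 (edgeR adjusted p = 0.0574).

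EPHA3 exceeded wild-type in clone 1 (0.19 ± 0.042) and was below it in clone 2 (-0.71 ± 0.045). EPHA3 averaged 43.05 ± 1.96 CPM in the rescue-labelled libraries, 41.9 ± 0.667 CPM in clone 2, 78.3 ± 0.189 CPM in clone 1 and 68.4 ± 3.41 CPM in wild-type. EPHA4 was higher in both, at 13.8 ± 0.837 CPM in clone 2 and 13.6 ± 0.536 CPM in clone 1, against 9.31 ± 0.549 CPM in wild-type. EPHB4, the highest in wild-type, had log2 fold changes of 0.23 ± 0.038 in clone 1 and 0.11 ± 0.038 in clone 2, and the call in clone 2 was lost without wild-type library 1 (edgeR adjusted p = 0.233), clone 2 library 1 (edgeR adjusted p = 0.0547) or clone 2 library 3 (edgeR adjusted p = 0.0935). EPHA7 averaged 9.89 to 12.4 CPM over the groups, and its call in clone 1 (-0.25 ± 0.090) was lost without wild-type library 2 (edgeR adjusted p = 0.0916) or clone 1 library 2 (edgeR adjusted p = 0.137). EPHB1 and EPHB2 stayed under 1 CPM in every library. EPHB1 was lower than wild-type in clone 2 (-2.40 ± 0.54) and held 1 read in the rescue-labelled libraries and 3 reads in clone 1, against 35 in wild-type. EPHB2 was called lower in the rescue-labelled libraries (-2.36 ± 0.52 against wild-type, or -3.14 without library 3 of that group).

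Of the receptors tied to Wnt signalling, ROR1 and ROR2, both bound by WNT5A, did not move together. ROR2 had 0.257, 0.0387 and 0.0382 CPM in the rescue-labelled libraries, 0.140, 0.354 and 0.231 CPM in clone 2, 0, 0 and 0 CPM in clone 1, and 0.965, 1.18 and 0.931 CPM in wild-type. Clone 1 held no read, at least 24.5-fold lower than wild-type with a floor of 3 counts over the group, and the log2 fold change was -2.12 ± 0.40 in clone 2, with -3.11 ± 0.45 in the rescue-labelled libraries, or -4.55 without library 1 of that group. Its neighbour NFIL3, 139.229 kb away, was also lower, at -2.58 in clone 1 and -1.15 in clone 2, while SPTLC1 on the other side was at -0.08 and -0.16. ROR1 had 12.8, 12.1 and 14.3 CPM in the rescue-labelled libraries, 12.6, 14.2 and 11.8 CPM in clone 2, 27.2, 27.9 and 27.5 CPM in clone 1, and 16.9, 14.8 and 15.9 CPM in wild-type. ROR1 exceeded wild-type in clone 1 (0.79 ± 0.067) and was below it in clone 2 (-0.31 ± 0.076), and clone 2 overlapped the rescue-labelled libraries. RYK and PTK7 showed the same opposed directions at smaller size. RYK averaged 42.1 ± 0.641 CPM in the rescue-labelled libraries, 43.3 ± 0.630 CPM in clone 2, 64.3 ± 1.98 CPM in clone 1 and 57.1 ± 0.895 CPM in wild-type. PTK7 averaged 88.3 ± 2.16 CPM in the rescue-labelled libraries, 85.04 ± 2.76 CPM in clone 2, 115 ± 0.777 CPM in clone 1 and 102 ± 7.14 CPM in wild-type. The log2 fold changes were 0.17 ± 0.041 and 0.18 ± 0.040 in clone 1, and -0.40 ± 0.044 and -0.26 ± 0.041 in clone 2. The genes within 5 Mb of RYK had a median of -0.35 in clone 2, and their part in its value was not tested. The collagen receptors DDR1 and DDR2 were lower in all 3 other groups than in wild-type. DDR2 had 42.3, 39.6 and 39.6 CPM in the rescue-labelled libraries, 43.9, 44.9 and 41.7 CPM in clone 2, 53.3, 53.3 and 57.6 CPM in clone 1, and 102, 102 and 101 CPM in wild-type. All wild-type libraries lay above all others. For DDR2 the log2 fold change was -0.89 ± 0.041 in clone 1, -1.23 ± 0.043 in clone 2, with -1.33 ± 0.043 in the rescue-labelled libraries, and that of DDR1 was -0.58 ± 0.050, -0.72 ± 0.051 and -0.84 ± 0.051 in the same order. STYK1 averaged 4.16 to 5.32 CPM over the groups, and its call in clone 1 (0.35 ± 0.12) was lost without clone 1 library 3 (edgeR adjusted p = 0.161).

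Set directly against each other, clone 2 had less RNA than clone 1 for AXL, AATK, PDGFRB, ROR1, CSF1R and EPHA5, and more for FLT4, RET and ROR2. Of the 43 receptors, 7 were called higher and 22 lower in clone 2, beside 30.3% and 31.9% of all genes tested (62.2% in either direction). At a change of at least 2-fold, 3 were higher (6.98%) and 7 lower (16.3%), against 7.29% and 6.64%. Of these, ROR2, RET, EPHA5, AATK, AXL and LMTK3 passed the filter through groups where they were higher. The median log2 fold change of the 43 was -0.35, and 0.00 over all genes. RET had 72 reads in clone 2 and 1 in clone 1, a ratio of 74.5 (exact 95% counting interval 13.0 to 2982). ROR2 had 16 reads in clone 2 and 0 in clone 1, at least 5.52-fold higher. FLT4 had a log2 fold change of 2.69 ± 0.11 and AXL of -3.75 ± 0.17. The genes within 5 Mb of FLT4 had a median of 0.54 in this comparison, and those within 5 Mb of FLT3 0.52. Their part in the receptors' values was not tested. Among the calls that rest on 1 library, ERBB4 (-0.19 ± 0.075) was lost without clone 1 library 2 (edgeR adjusted p = 0.162) or clone 2 library 1 (edgeR adjusted p = 0.150), and EPHA1 (-0.94 ± 0.31) without clone 1 library 3 (edgeR adjusted p = 0.0502) or clone 2 library 1 (edgeR adjusted p = 0.0748). KIT (0.13 ± 0.046) was lost without clone 1 library 3 (edgeR adjusted p = 0.0868) or clone 2 library 2 (edgeR adjusted p = 0.0603), and DDR1 (-0.14 ± 0.054) without clone 1 library 1 (edgeR adjusted p = 0.130) or clone 2 library 2 (edgeR adjusted p = 0.0629). LMTK3 (-1.03 ± 0.36) was lost without clone 1 library 2 (edgeR adjusted p = 0.153) or clone 2 library 3 (edgeR adjusted p = 0.0990).

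In the rescue-labelled libraries most called receptors were lower than in clone 2. AATK, AXL, RET, PDGFRB, EPHA1, CSF1R and EPHA2 were lower by at least 2-fold, as were EPHB2, INSRR and LMTK3 at under 1 CPM in both groups, and ROS1 was higher. Of the 43 receptors, 3 were called higher (ROS1, FGFR3 and TYRO3) and 18 lower, beside 19.3% and 19.9% of all genes tested, where 39.2% were called in either direction. At a change of at least 2-fold, 1 was higher and 10 lower (23.3%), against 0.48% and 4.47% of all genes, or 11 in either direction (25.6%), against 4.95%. Of these, ROS1, EPHB2, INSRR, EPHA1, RET, AATK, AXL and LMTK3 passed the filter through groups where they were higher. The median log2 fold change of the 43 was -0.15, and -0.00 over all genes. PDGFRB had -1.42 ± 0.051, EPHA2 -1.02 ± 0.063 and INSR -0.45 ± 0.055 on the log2 scale. The call of EPHA1 (-1.43 ± 0.44, or -2.07 without rescue-labelled library 1) was lost without rescue-labelled library 2 (edgeR adjusted p = 0.0703). For EPHB4 the call (-0.12 ± 0.038) was lost without clone 2 library 1 (edgeR adjusted p = 0.0505), clone 2 library 3 (edgeR adjusted p = 0.0879) or rescue-labelled library 3 (edgeR adjusted p = 0.0703).

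Against wild-type the rescue-labelled libraries were lower in PDGFRA, EPHA5, RET, ROR2, FGFR4, DDR2, PDGFRB, AXL, AATK and EPHB3 and higher in ROS1, ERBB4 and MET. Of the 43 receptors, 6 were called higher and 24 lower, beside 28.5% and 29.9% of all genes tested, where 58.4% were called in either direction. At a change of at least 2-fold, 2 were higher (4.65%) and 12 lower (27.9%), against 6.78% and 3.97%. Of these, ROS1, EPHB2, EPHB1, PDGFRA, EPHA5, ROR2, RET, AATK and AXL passed the filter through groups where they were higher. The median log2 fold change of the 43 was -0.25, and 0.00 over all genes. This comparison shares its wild-type libraries with those of the clones, and its rescue-labelled libraries with the comparison against clone 2. For INSR, CSF1R, EPHA1 and FLT4, rescue-labelled and wild-type libraries were not called different, at log2 fold changes of -0.02 ± 0.057, 0.10 ± 0.48, -0.10 ± 0.53 and 0.10 ± 0.083. ERBB3 (-0.44 ± 0.17), LTK (-0.21 ± 0.074) and IGF1R (-0.10 ± 0.039) were called lower, and each lost its call when 1 library was left out. For ERBB3 these were wild-type libraries 1 and 2 and rescue-labelled libraries 2 and 3 (edgeR adjusted p = 0.0546 to 0.0666), for LTK wild-type library 2 (0.0778) and rescue-labelled library 2 (0.0842), and for IGF1R wild-type libraries 1 (0.0796) and 2 (0.118) and rescue-labelled library 2 (0.174).

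**Figure D5:**
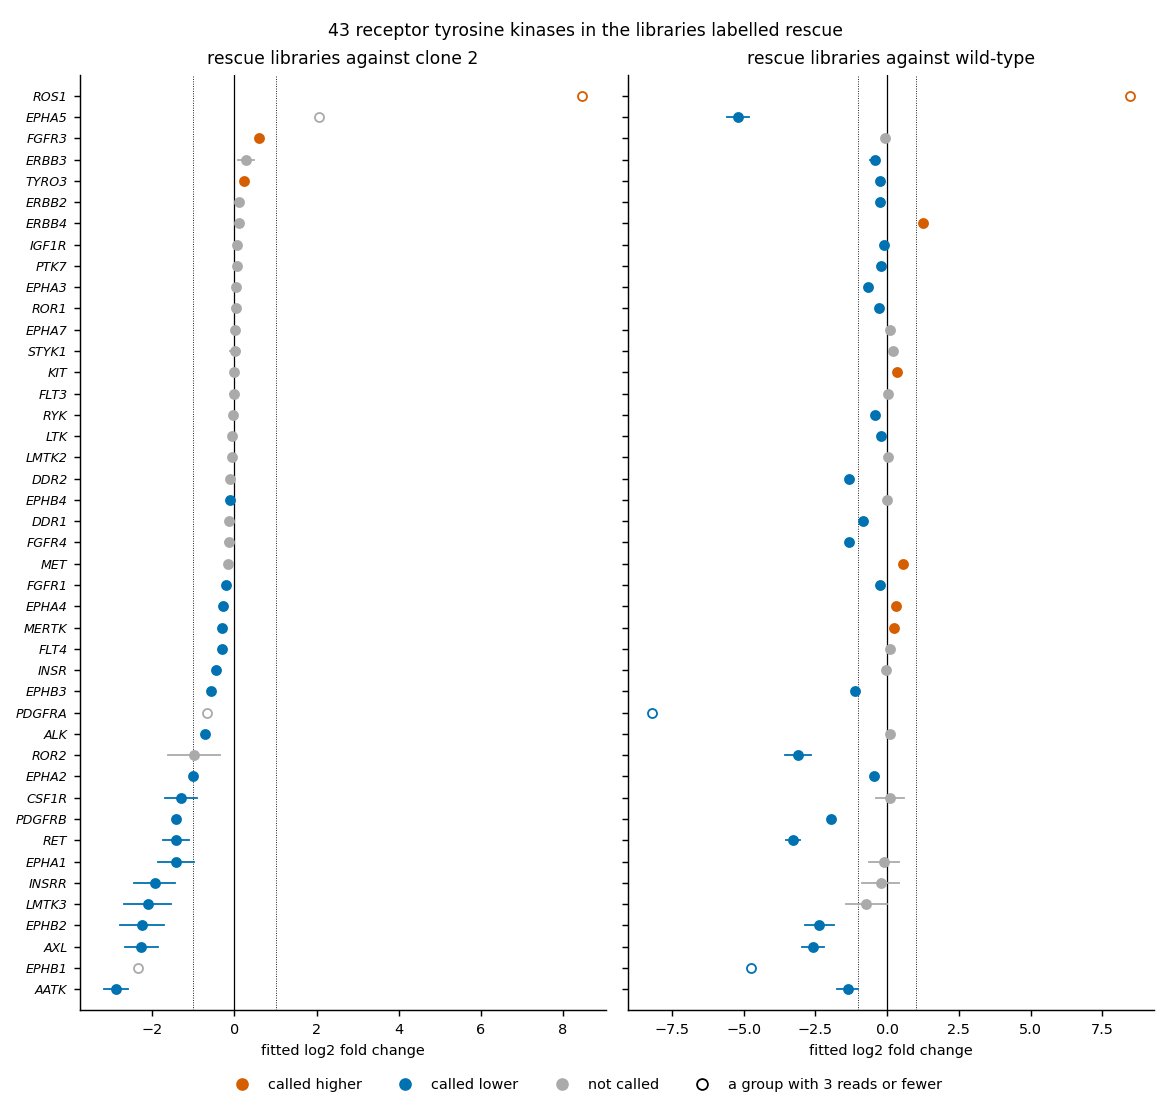
Fitted log2 fold change with its SE for the 43 tested receptor tyrosine kinases in the rescue-labelled libraries against clone 2 (left) and against wild-type (right), ordered by the left panel. Open points have 3 reads or fewer in a group, and of the filled points AATK at -2.89 and AXL at -2.27 lie among the lowest against clone 2.

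The ligands of these receptors were read in the same libraries. Of 74 ligand genes on the list, 45 were in the table and 36 were tested. Against wild-type, 10 were called higher and 11 lower in clone 1, 13 and 12 in clone 2, and 13 and 14 in the rescue-labelled libraries. In the rescue-labelled libraries against clone 2, 10 were higher and 13 lower, and in clone 2 against clone 1, 16 and 13 (80.6%, beside 62.2% of all genes). In either direction 75.0% of the tested genes of the list were called in the rescue-labelled libraries, 69.4% in clone 2 and 58.3% in clone 1 against wild-type, beside 58.4%, 62.1% and 61.5% of all genes, and 63.9% were called in the rescue-labelled libraries against clone 2, beside 39.2%. Their median log2 fold changes against wild-type were 0.04 in clone 1, 0.07 in clone 2, with -0.02 in the rescue-labelled libraries, close to those of all genes (0.01, 0.01 and 0.00). TGFA, a ligand of EGFR, was at 1.20 ± 0.153 CPM in the rescue-labelled libraries, 6.50 ± 0.671 CPM in clone 2, 34.2 ± 1.91 CPM in clone 1 and 6.39 ± 0.472 CPM in wild-type. KITLG, the ligand of KIT, was at 4.18 ± 0.0288 CPM in the rescue-labelled libraries, 4.51 ± 0.218 CPM in clone 2, 0.793 ± 0.0524 CPM in clone 1 and 5.30 ± 0.345 CPM in wild-type. Clone 1 was highest in TGFA and lowest in KITLG, and clone 2 was not called different from wild-type in TGFA (log2 fold change 0.00). IGF1, the ligand of IGF1R, was at 21.6 ± 0.808 CPM in the rescue-labelled libraries, 31.7 ± 1.21 CPM in clone 2, 48.0 ± 1.47 CPM in clone 1 and 16.3 ± 0.659 CPM in wild-type. CSF1, which binds CSF1R, was at 14.6 ± 0.540 CPM in the rescue-labelled libraries, 7.90 ± 1.39 CPM in clone 2, 5.65 ± 0.693 CPM in clone 1 and 2.79 ± 0.414 CPM in wild-type. GDNF, which acts through RET, was at 17.3 ± 0.711 CPM in the rescue-labelled libraries, 17.8 ± 0.661 CPM in clone 2, 6.93 ± 0.161 CPM in clone 1 and 6.83 ± 0.816 CPM in wild-type. CSF1 was highest in the rescue-labelled libraries, and GDNF was higher in these and in clone 2 than in clone 1. WNT5A, which binds ROR receptors and RYK, was at 33.9 ± 2.89 CPM in the rescue-labelled libraries, 41.7 ± 3.78 CPM in clone 2, 17.4 ± 0.540 CPM in clone 1 and 40.0 ± 0.973 CPM in wild-type. PGF, a ligand of FLT1, was at 86.7 ± 4.67 CPM in the rescue-labelled libraries, 32.1 ± 1.51 CPM in clone 2, 57.9 ± 4.17 CPM in clone 1 and 24.6 ± 3.68 CPM in wild-type. GAS6, which binds AXL, was at 0.406 ± 0.140 CPM in the rescue-labelled libraries, 2.10 ± 0.676 CPM in clone 2, 0.835 ± 0.270 CPM in clone 1 and 0.768 ± 0.516 CPM in wild-type. WNT5A was lowest in clone 1, and PGF was highest in the rescue-labelled libraries. NRG2, a neuregulin, was at 1.05 ± 0.425 CPM in the rescue-labelled libraries, 1.22 ± 0.167 CPM in clone 2, 2.38 ± 0.326 CPM in clone 1 and 0.106 ± 0.0286 CPM in wild-type. FGF1, a fibroblast growth factor, was at 1.64 ± 0.316 CPM in the rescue-labelled libraries, 1.07 ± 0.270 CPM in clone 2, 0.641 ± 0.104 CPM in clone 1 and 0.242 ± 0.162 CPM in wild-type. Both were higher than in wild-type in clone 2 and in the rescue-labelled libraries.

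Of 15 co-receptor genes 10 were in the table and 8 were tested. Against wild-type, 4 were called higher and 3 lower in clone 1, 4 and 4 in clone 2, and 2 and 5 in the rescue-labelled libraries. In the rescue-labelled libraries against clone 2, 2 were higher and 2 lower, and in clone 2 against clone 1, 2 and 6 (100%, beside 62.2% of all genes). In either direction 87.5% of the tested genes of the list were called in the rescue-labelled libraries, 100% in clone 2 and 87.5% in clone 1 against wild-type, beside 58.4%, 62.1% and 61.5% of all genes, and 50% were called in the rescue-labelled libraries against clone 2, beside 39.2%. Their median log2 fold changes against wild-type were 0.36 in clone 1, -0.01 in clone 2, with -0.57 in the rescue-labelled libraries (0.01, 0.01 and 0.00 over all genes). NGFR, which pairs with neurotrophin receptors, was at 29.3 ± 1.52 CPM in the rescue-labelled libraries, 73.8 ± 5.19 CPM in clone 2, 155 ± 4.06 CPM in clone 1 and 64.5 ± 2.58 CPM in wild-type. NRP1, a co-receptor of VEGF receptors, was at 17.4 ± 0.837 CPM in the rescue-labelled libraries, 37.4 ± 2.31 CPM in clone 2, 42.8 ± 1.11 CPM in clone 1 and 24.4 ± 0.835 CPM in wild-type. Both were highest in clone 1 and lowest in the rescue-labelled libraries. LRP4, the co-receptor of MUSK for agrin, was at 27.2 ± 1.70 CPM in the rescue-labelled libraries, 28.5 ± 2.44 CPM in clone 2, 34.7 ± 0.484 CPM in clone 1 and 66.2 ± 3.38 CPM in wild-type. PLXNB1, which can associate with MET, was at 16.9 ± 1.55 CPM in the rescue-labelled libraries, 13.4 ± 0.875 CPM in clone 2, 29.7 ± 2.49 CPM in clone 1 and 27.3 ± 1.61 CPM in wild-type. GFRA2, the co-receptor with which RET binds neurturin, was at 12.6 ± 0.551 CPM in the rescue-labelled libraries, 10.1 ± 0.587 CPM in clone 2, 11.6 ± 0.441 CPM in clone 1 and 19.9 ± 0.712 CPM in wild-type. LRP4 was lower in all 3 other groups than in wild-type. KL, the FGF23 co-receptor of FGF receptors, was at 3.30 ± 0.250 CPM in the rescue-labelled libraries, 3.31 ± 0.104 CPM in clone 2, 2.21 ± 0.439 CPM in clone 1 and 0.885 ± 0.348 CPM in wild-type. SORT1, a sorting receptor that pairs with NGFR, was at 119 ± 3.17 CPM in the rescue-labelled libraries, 118 ± 2.40 CPM in clone 2, 57.3 ± 1.95 CPM in clone 1 and 86.2 ± 1.80 CPM in wild-type. FGFRL1, an FGF-binding receptor without a kinase, was at 29.3 ± 1.501 CPM in the rescue-labelled libraries, 26.7 ± 1.64 CPM in clone 2, 46.9 ± 1.67 CPM in clone 1 and 31.3 ± 1.06 CPM in wild-type. KL was higher in all 3 other groups than in wild-type.

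Inside the cell, 37 of 41 adaptor and docking genes were in the table and 36 were tested. Against wild-type, 11 were called higher and 16 lower in clone 1, 12 and 12 in clone 2, and 10 and 15 in the rescue-labelled libraries. In the rescue-labelled libraries against clone 2, 4 were higher and 15 lower, and in clone 2 against clone 1, 15 and 9 (66.7%, beside 62.2% of all genes). In either direction 69.4% of the tested genes of the list were called in the rescue-labelled libraries, 66.7% in clone 2 and 75.0% in clone 1 against wild-type, beside 58.4%, 62.1% and 61.5% of all genes, and 52.8% were called in the rescue-labelled libraries against clone 2, beside 39.2%. Their median log2 fold changes against wild-type were -0.09 in clone 1, 0.06 in clone 2, with -0.05 in the rescue-labelled libraries (0.01, 0.01 and 0.00 over all genes). GRB10, which binds and restrains the insulin and IGF1 receptors, was at 42.7 ± 0.268 CPM in the rescue-labelled libraries, 38.7 ± 0.514 CPM in clone 2, 29.2 ± 1.78 CPM in clone 1 and 71.0 ± 1.496 CPM in wild-type. NCK2, an SH2 and SH3 adaptor, was at 5.98 ± 1.02 CPM in the rescue-labelled libraries, 9.29 ± 0.686 CPM in clone 2, 5.004 ± 0.349 CPM in clone 1 and 14.7 ± 0.642 CPM in wild-type. VAV2 was at 2.37 ± 0.119 CPM in the rescue-labelled libraries, 4.33 ± 0.250 CPM in clone 2, 1.69 ± 0.270 CPM in clone 1 and 5.60 ± 0.168 CPM in wild-type. These were lower in all 3 other groups than in wild-type. VAV3, its relative, was at 2.42 ± 0.357 CPM in the rescue-labelled libraries, 2.27 ± 0.140 CPM in clone 2, 1.07 ± 0.260 CPM in clone 1 and 0.612 ± 0.149 CPM in wild-type. GRB14, a relative of GRB10, was at 1.68 ± 0.149 CPM in the rescue-labelled libraries, 2.82 ± 0.392 CPM in clone 2, 4.03 ± 0.232 CPM in clone 1 and 1.60 ± 0.470 CPM in wild-type. GRB14 was higher in clone 1 than in wild-type. The docking protein DOK3 was at 13.5 ± 0.931 CPM in the rescue-labelled libraries, 13.2 ± 0.823 CPM in clone 2, 5.79 ± 0.643 CPM in clone 1 and 5.98 ± 0.426 CPM in wild-type. Its relative DOK4 was at 7.99 ± 0.295 CPM in the rescue-labelled libraries, 6.97 ± 0.925 CPM in clone 2, 18.3 ± 0.484 CPM in clone 1 and 14.2 ± 0.568 CPM in wild-type. DOK6, which binds RET, was at 45.3 ± 2.24 CPM in the rescue-labelled libraries, 58.7 ± 0.943 CPM in clone 2, 74.4 ± 2.53 CPM in clone 1 and 49.0 ± 1.87 CPM in wild-type. DOK4 was lower in clone 2 than in clone 1 and in wild-type. PLCG2, a phospholipase C, was at 6.47 ± 0.474 CPM in the rescue-labelled libraries, 6.35 ± 0.493 CPM in clone 2, 2.87 ± 0.271 CPM in clone 1 and 4.71 ± 0.232 CPM in wild-type. DOK3 and VAV3 were higher in clone 2 and in the rescue-labelled libraries than in wild-type.

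Of 22 negative regulators 20 were in the table and 19 were tested. Against wild-type, 6 were called higher and 7 lower in clone 1, 7 and 7 in clone 2, and 7 and 7 in the rescue-labelled libraries. In the rescue-labelled libraries against clone 2, 2 were higher and 7 lower, and in clone 2 against clone 1, 8 and 9 (89.5%, beside 62.2% of all genes). In either direction 73.7% of the tested genes of the list were called in the rescue-labelled libraries, 73.7% in clone 2 and 68.4% in clone 1 against wild-type, beside 58.4%, 62.1% and 61.5% of all genes, and 47.4% were called in the rescue-labelled libraries against clone 2, beside 39.2%. Their median log2 fold changes against wild-type were 0.04 in clone 1, 0.06 in clone 2, with -0.03 in the rescue-labelled libraries (0.01, 0.01 and 0.00 over all genes). ERRFI1, a feedback inhibitor of ERBB receptors, was at 119.7 ± 9.81 CPM in the rescue-labelled libraries, 137 ± 17.2 CPM in clone 2, 111 ± 7.91 CPM in clone 1 and 55.6 ± 4.28 CPM in wild-type. It was higher in all 3 other groups than in wild-type. SOCS2, which dampens cytokine and growth hormone signals, was at 11.4 ± 1.06 CPM in the rescue-labelled libraries, 14.3 ± 0.424 CPM in clone 2, 35.0 ± 2.00 CPM in clone 1 and 13.7 ± 0.0843 CPM in wild-type. LRIG3, a membrane protein of a family that lowers receptor levels, was at 44.7 ± 1.41 CPM in the rescue-labelled libraries, 35.0 ± 1.51 CPM in clone 2, 54.3 ± 2.31 CPM in clone 1 and 36.3 ± 1.63 CPM in wild-type. SH3KBP1, which helps CBL take receptors into the cell, was at 24.3 ± 0.935 CPM in the rescue-labelled libraries, 27.2 ± 2.82 CPM in clone 2, 12.1 ± 0.489 CPM in clone 1 and 16.2 ± 0.354 CPM in wild-type. SOCS2 and LRIG3 were higher, and SH3KBP1 lower, in clone 1 than in wild-type. The receptor phosphatase PTPRG was at 9.53 ± 0.571 CPM in the rescue-labelled libraries, 8.83 ± 0.243 CPM in clone 2, 21.3 ± 0.643 CPM in clone 1 and 18.0 ± 0.304 CPM in wild-type. PTPRF, another, was at 69.1 ± 3.04 CPM in the rescue-labelled libraries, 119 ± 2.31 CPM in clone 2, 143 ± 4.52 CPM in clone 1 and 130.5 ± 10.4 CPM in wild-type. PTPRJ, of the same class, was at 0.681 ± 0.0998 CPM in the rescue-labelled libraries, 1.14 ± 0.296 CPM in clone 2, 0.0412 ± 0.0713 CPM in clone 1 and 0.248 ± 0.0822 CPM in wild-type. PTPRG was lower and PTPRJ higher in clone 2 than in wild-type. UBASH3B, a phosphatase that binds CBL, was at 1.37 ± 0.142 CPM in the rescue-labelled libraries, 1.87 ± 0.367 CPM in clone 2, 0.0356 ± 0.0616 CPM in clone 1 and 0.388 ± 0.0986 CPM in wild-type. SOCS5, a relative of SOCS2, was at 33.9 ± 1.48 CPM in the rescue-labelled libraries, 43.4 ± 1.72 CPM in clone 2, 44.4 ± 1.07 CPM in clone 1 and 44.5 ± 1.38 CPM in wild-type. In clone 1 PTPRJ and UBASH3B rest on 3 reads each.

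The positions of the receptors were read from the GENCODE annotation of hg38. Along the chromosomes, PDGFRA and KIT have no other coding gene of the table between them, and neither do CSF1R and PDGFRB. LTK and TYRO3 lie 43.788 kb apart on chromosome 15, where LTK was higher in clone 1 than in wild-type and TYRO3 lower. The median log2 fold change of all genes of a chromosome was beyond 0.1 in size for a few chromosomes that hold receptors, chromosome 8 with FGFR1 among them. In clone 1 it was -0.29 on chromosome 13 (FLT3), -0.10 on chromosome 5 (CSF1R, PDGFRB, FGFR4 and FLT4), -0.21 on chromosome 6 (DDR1, PTK7, EPHA7 and ROS1), -0.11 on chromosome 3 (EPHA3, RYK, EPHB1 and EPHB3) and 0.20 on chromosome 19 (INSR, AXL and LMTK3). In clone 2 it was -0.20 on chromosomes 3 and 4 (chromosome 4 holds FGFR3, PDGFRA, KIT and EPHA5), -0.12 on chromosome 15 (LTK, TYRO3 and IGF1R), -0.11 on chromosome 6, 0.10 on chromosome 13 and 0.15 on chromosome 19. The part of these shifts in the receptors' changes was not tested. The exons of 8 receptors overlap another gene of the table, and for 7 of them that gene is on the opposite strand. They are AATK, EPHA1, EPHA4, EPHB4, ERBB2, FGFR1 and INSRR. The libraries were made with a stranded kit, but the strand setting of the counting is not given in the sources used here, so reads of these genes and their partners cannot be told apart with certainty. AATK shares 138 bases of exon with BAIAP2, which had 648 to 1307 counts per library against 6 to 121 for AATK, and EPHA1 shares 82 bases with ZYX, which had 1319 to 2325 counts against 2 to 32 for EPHA1.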

How the data were processed

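Poly(A) RNA of 12 TC71 libraries was sequenced after stranded library preparation, per the labels' protocols. The authors deposited raw counts per gene, with Ensembl identifiers. Reads were handled with FastQC and STAR on hg38, per the submitters' processing notes. For the counting program, its annotation and its strand setting, nothing was given in the sources used here. If strand was ignored, genes that overlap on opposite strands share reads.

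From the deposited counts, genes were kept with filterByExpr (minimum count 10), scaled by TMM and tested with edgeR 4.0.16 (R 4.3.3) in a quasi-likelihood fit of all 12 libraries, with 1 mean per group and 8 residual degrees of freedom. P-values were adjusted by Benjamini-Hochberg over 17084 genes, and calls used an adjusted p under 0.05, in part with a change of at least 2-fold. The SE was taken from the log2 fold change and the F statistic. The procedure was tested on simulated data. Totals of 19420408 to 29748084 counts set the precision, and a group without reads was set at a floor of 3 counts. Counting intervals are exact at 95%.

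Of 21569 identifiers, 18647 had a symbol. CPM per kb used union exon lengths of GENCODE v29, which held 20825 of them. Groups follow the labels. The receptors, the gene lists and the tests were chosen with earlier results of these data known. Values in every library are given for the 19 receptors that were called with a change of at least 2-fold in a comparison and had a mean of at least 1 CPM in a group. The 10 highest in wild-type per kb are named too, and of each other list up to 4 called genes per comparison by size of change, with a mean of at least 1 CPM and no overlap between the groups compared. Alternatives were another scaling, filter or test (DESeq2 1.42.0, limma 3.58.1), a fit of only the groups compared, the replicate number as a block, and each library left out in turn.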

Additional observations from a re-analysis of the deposited data

Results flagged for a closer look

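For 29 of the 43 receptors tested (67.4%), the effect against wild-type differed between the clones by the test of clone 2 against clone 1 (edgeR adjusted p under 0.05), beside 62.2% of all genes. Each difference is on the log2 scale, clone 2 minus clone 1, and both effects share the wild-type libraries. In 8 of them the clones were called in opposite directions. PDGFRB differed by -1.27 (-0.54 in clone 2, 0.73 in clone 1, edgeR adjusted p = 9.51e-27). ROR1 differed by -1.11 (-0.31 in clone 2, 0.79 in clone 1, edgeR adjusted p = 3.11e-17). FLT4 differed by 2.69 (0.40 in clone 2, -2.30 in clone 1, edgeR adjusted p = 2.25e-23), beside a median of 0.54 for the genes within 5 Mb of it. For the other 5 the difference was -0.90 in EPHA3, -0.57 in RYK, -0.44 in PTK7, -0.52 in IGF1R and -0.65 in ERBB2 (edgeR adjusted p at most 2.87e-12), and these were higher in clone 1 and lower in clone 2 than wild-type.

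Only 1 clone was called against wild-type in 6 receptors, where the difference was -3.75 in AXL, 0.79 in FLT3, -0.73 in FGFR3, -0.85 in LTK, 0.48 in EPHA2 and 0.32 in EPHA7 (edgeR adjusted p at most 0.00216). The genes within 5 Mb of FLT3 had a median of 0.52 between the clones, and their part in its difference was not tested. Among receptors higher in both clones, the difference was -1.47 in AATK, -1.0 in CSF1R, -0.94 in EPHA1, -1.03 in LMTK3, -0.68 in INSR, -0.44 in MET, -0.19 in ERBB4, -0.12 in EPHB4 and 0.13 in KIT (edgeR adjusted p at most 0.0299). Among receptors lower in both, it was -3.46 in EPHA5, -0.39 in EPHB3, -0.33 in DDR2 and -0.14 in DDR1 (edgeR adjusted p at most 0.0215). In RET it was 5.77 and in ROR2 5.53, both lower in each clone than in wild-type, with clone 2 higher than clone 1. The fitted values of EPHA5, RET and ROR2 depend on groups with 0 or 1 read and are no measured folds.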

How the results depend on the processing

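Over all alternatives, 280 counts of called receptors stayed within 1.5 times the reported one and no called fold change turned its sign. Of the receptors' fold changes, 2893 kept their call, 55 lost it and 14 gained one. Leaving out a library accounted for 43 of the losses and 6 of the gains. With each library left out in turn, the receptors called lower in clone 1 than in wild-type numbered 11 to 15, those called higher in clone 2 than in wild-type 13 to 16 (4 to 6 by at least 2-fold), and those lower in the rescue-labelled libraries than in clone 2 by at least 2-fold 8 to 11. Replicate numbers are shared by the groups, but same-numbered libraries did not deviate together over all genes (r of -0.036 to 0.052 across genes), so they were not treated as paired. With the replicate number as a block, all 20 counts and all 215 fold changes kept their call. Over 9543 genes of at least 10 CPM, r between same-numbered libraries of the clones was 0.133 to 0.207. With wild-type it was -0.016 to 0.193 for clone 1 and -0.021 to 0.266 for clone 2. Pairs with the rescue-labelled libraries had r of -0.139 to 0.089. These values are a hint from the data and not from the design. Upper quartile scaling moved the median of all genes by under 0.1 and added calls for DDR2 (-0.13), DDR1 (-0.15) and MET (-0.18) in the rescue-labelled libraries against clone 2. ERBB4 was not called between the clones with upper quartile scaling (edgeR adjusted p = 0.146) or DESeq2 (adjusted p = 0.0848). The cause was not tested. Low counts limit EPHA1, EPHB1, EPHB2, INSRR and LMTK3, and depth does not allow the levels of PDGFRA, EPHA5, RET, ROR2 and ROS1 to be compared among groups with 3 reads or fewer.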
